A study of Mus musculus with 24 samples.

Results

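The genes described here are the protein-coding Hox genes of the A, B and D clusters, chosen by symbol as every gene of the table whose mouse symbol is Hox followed by a, b or d and a number. There were 30 of them among the 52636 genes of the table: 11 of the HoxA cluster, 10 of the HoxB cluster and 9 of the HoxD cluster. In the mouse genome (GRCm38) HoxA lay on the minus strand of chromosome 6, HoxB on the plus strand of chromosome 11 from Hoxb13 at 96194316, and HoxD on the plus strand of chromosome 2 from Hoxd13 at 74668310 to the end of Hoxd1 at 74765142. Hox genes encode homeodomain transcription factors that give cells their position along the head-to-tail axis of the embryo. Their order on the chromosome follows the order of their expression along the body: high-numbered genes act in the posterior trunk, the hindgut and the tips of the limbs, and low-numbered genes in the hindbrain and neck. In adult tissues and in cell lines the pattern is kept in part, with Polycomb proteins holding silent genes closed and Trithorax proteins keeping active genes open.

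All samples were polyadenylated RNA from MC38, a mouse colorectal cancer cell line, grown as 8 lines with 3 samples each. MC38-WT carried no construct and was the only line grown without puromycin, at passages 7 to 9. MC38-MOCK#1 received a CRISPR-Cas9 construct without a target. MC38-COSMC KO (C1galt1c1, the chaperone of core O-glycan elongation), MC38-CMAS KO (the enzyme that activates sialic acid) and MC38-DKO (both genes) received targeting CRISPR-Cas9 constructs, and these 4 lines were harvested at passages 4 to 6. MC38-MOCK#2 carried the transcriptional activator dCas-VPR without a target, and the lines labelled MC38-FUT4 and MC38-FUT9 carried it with guides for the fucosyltransferases Fut4 and Fut9, at passages 6 to 8 in MC38-MOCK#2 and MC38-FUT9 and at 7, 8 and 7 in MC38-FUT4. Samples 1 and 3 of MC38-FUT4 thus share a passage, and whether they are separate harvests is not given in the sources used here. The COSMC KO line was a bulk sort and not a clone, and how the other lines were isolated is not given in the sources used here. The study's methods describe the 3 samples of a line as independent passages taken at separate times, so p-values measure the spread between passages of 1 line. An effect of a construct and a difference that arose while a line was made cannot be told apart, since each construct is in 1 line.

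Library totals ran from 10911849 to 12263307 normalized counts, the deposited unit, which is the read count of a gene after library-size and TMM scaling by the authors, rounded to whole numbers. From the steps between low values the depth was estimated at 6758702 to 16232041 reads, so that 1 read was worth 0.756 to 1.67 normalized counts. Of the targeted genes, Cmas read 93 to 126 in MC38-CMAS KO and 122 to 142 in MC38-DKO and at least 272 elsewhere, and C1galt1c1 was lower in MC38-COSMC KO but did not pass the test in MC38-DKO. The line labelled MC38-FUT4 went against its label: Fut4 read 0 to 1 in every sample of the series, and this line held 171 to 209 normalized counts of Fut9 against 641 to 955 in MC38-FUT9. Of 11 markers of colon epithelium 10 were at or below 10 normalized counts in all 24 samples, Epcam and Cdh1 at 0 to 3 (Krt20 was the exception, at 0 to 468). Mesenchymal markers were above 0 in every sample but spanned a wide range. Vim read 19787 to 33315 and Fn1 5997 to 26791, while Col1a1 read 19 to 255 and Col1a2 4 to 131.

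Before the values, a few regulatory sequences place the genes. RefSeq promoter windows of GRCm38.p6, each from 250 bases before to 50 bases after the transcription start, were at hand for 21 of the 30 members, in 23 windows, and not, among others, for Hoxa4, Hoxb13, Hoxb9, Hoxb7, Hoxb6, Hoxb5, Hoxb3 and Hoxb2. Shown are Hoxb8, which varied strongly between the lines, Hoxb4 of the same cluster, which did not pass any test, and Hoxd10 and Hoxd8, neighbours but for Hoxd9 that moved in opposite directions in MC38-MOCK#2. Capitals mark the TATA-box letters TATAAA, the CCAAT box, the GC-box letters GGGCGG or the composite letters TGATTNAT (N being any base) read on either strand, so that a match on the opposite strand appears as its reverse complement. Hoxb8 (chr11:96281655-96281954), Hoxb4 (chr11:96318017-96318316), Hoxd10 (chr2:74691641-74691940) and Hoxd8 (chr2:74704365-74704664) are all on the plus strand.
Hoxb8: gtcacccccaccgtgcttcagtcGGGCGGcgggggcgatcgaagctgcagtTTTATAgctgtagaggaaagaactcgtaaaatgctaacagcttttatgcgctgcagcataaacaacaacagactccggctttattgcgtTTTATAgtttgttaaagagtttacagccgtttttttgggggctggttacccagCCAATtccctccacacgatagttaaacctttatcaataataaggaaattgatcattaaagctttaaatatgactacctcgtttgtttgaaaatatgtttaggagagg
Hoxb4: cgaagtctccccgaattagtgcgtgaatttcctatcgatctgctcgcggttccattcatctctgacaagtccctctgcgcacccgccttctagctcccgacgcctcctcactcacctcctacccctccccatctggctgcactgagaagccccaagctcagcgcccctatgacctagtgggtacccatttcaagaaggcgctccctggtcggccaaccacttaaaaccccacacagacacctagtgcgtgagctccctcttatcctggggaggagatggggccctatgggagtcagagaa
Hoxd10: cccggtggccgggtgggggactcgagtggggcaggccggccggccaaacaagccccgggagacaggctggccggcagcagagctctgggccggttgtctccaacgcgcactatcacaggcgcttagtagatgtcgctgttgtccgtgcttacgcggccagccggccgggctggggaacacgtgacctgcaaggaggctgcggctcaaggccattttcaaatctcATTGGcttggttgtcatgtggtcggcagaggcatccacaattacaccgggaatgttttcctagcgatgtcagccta
Hoxd8: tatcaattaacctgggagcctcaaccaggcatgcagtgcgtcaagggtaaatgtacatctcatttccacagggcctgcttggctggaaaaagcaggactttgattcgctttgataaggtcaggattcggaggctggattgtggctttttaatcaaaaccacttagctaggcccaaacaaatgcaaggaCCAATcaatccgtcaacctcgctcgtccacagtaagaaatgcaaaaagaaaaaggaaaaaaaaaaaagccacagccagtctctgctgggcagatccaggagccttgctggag

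The Hoxb8 window held 13 CG dinucleotides and matched TATAAA at 2 positions, with GGGCGG and CCAAT at 1 position each. The Hoxb4 window held 14 CG dinucleotides and none of the 4 motifs. CG dinucleotides numbered 22 in the Hoxd10 window and 6 in the Hoxd8 window, and both matched CCAAT. Over the 23 member windows TATAAA occurred in 4 (17.4%, against 13.6% of all 32851 windows), CCAAT in 14 (60.9% against 37.4%), GGGCGG in 9 (39.1% against 35.7%) and TGATTNAT, the letters of a Hox and Pbx composite site, in 2 (8.7% against 3.22%). Member windows held a median of 15 CG dinucleotides (4 to 45), against 7 over all windows. In the printed windows no match overlapped another, and all of this describes letters only.

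Between Hoxb13 and Hoxb9 lies the gene of miR-196a (Mir196a-1), a microRNA known for cutting Hoxb8 mRNA. Its mature sequence is shown with the Hoxb8 site because both lie in the span from Hoxb13 to Hoxb7, whose Hox genes varied. Whether the microRNA itself varied was not measured. The mature miR-196a-5p, at chr11:96265187-96265208 on the plus strand (RefSeq, GRCm38.p6), lies in a hairpin that starts at 96265164, 67716 bases after the end of Hoxb13. Its seed, bases 2 to 8, is in capitals. The site in Hoxb8 lies in the 3′ untranslated region in exon 2 of 2, at chr11:96284888-96284909 on the plus strand (GRCm38), and its capitals mark bases that pair with the microRNA, 21 of 22 with 1 wobble pair.
miR-196a-5p: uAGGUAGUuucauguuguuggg
Hoxb8 site: CCCAACAACAUGAAACUgCCUA

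A poly(A) library of this kind does not measure mature microRNAs, and the row of Mir196a-1 was listed at 0.

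Across the 30 members, 24 had a mean of at least 10 normalized counts in at least 1 line: all 11 of HoxA, 8 of HoxB and 5 of HoxD. The other 6 were Hoxb2 (0 to 5 in every sample), Hoxd3 (0 to 2), Hoxd12 (0 to 2), Hoxd11 (0 to 1) and Hoxb1 and Hoxd1, which were listed at 0 in all 24 samples. A count of 0 in every sample of a line still allows up to 3 counts over that line, so a lower level was not detectable at this depth, and these limits cover counting error only.

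Levels between genes were compared as the mean of the 8 line means per kilobase of exon. Hoxa7, which patterns the trunk skeleton, was the most abundant at 217 normalized counts per kilobase, followed by Hoxd13, a gene of the digits and the urogenital tract, at 112 and Hoxd9 at 105. Next came Hoxa10 at 90.2, Hoxa9 at 74.8, Hoxd10 at 69.7 and Hoxa11 at 65.6 per kilobase, all genes of the posterior trunk and the limb. The level was not a simple function of position, since Hoxa13 at the posterior end of HoxA stood at 4.82 and Hoxd11 and Hoxd12, between Hoxd13 and Hoxd10, were close to 0. In HoxB the highest was Hoxb6 at 63.2, with Hoxb9 at 33.5, Hoxb8 at 17.6, Hoxb13 at 15.4 and Hoxb7 at 6.23 per kilobase. These 8-line means are descriptions, and where a gene shares exon bases with a neighbour the level is uncertain: shared bases made up 62.8% of Hoxd3, 52.9% of Hoxb3, 52.3% of Hoxd4, 35.0% of Hoxa11 (with Hoxa11os), 27.1% of Hoxa3 and 20.4% of Hoxa7, and none of Hoxb6, Hoxb7, Hoxb8, Hoxb9, Hoxb13, Hoxa10, Hoxd8, Hoxd9 and Hoxd13. Reads overlapping more than 1 gene were left out by the authors and the strand setting of the counting is not given in the sources used here.

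**Figure D1:**
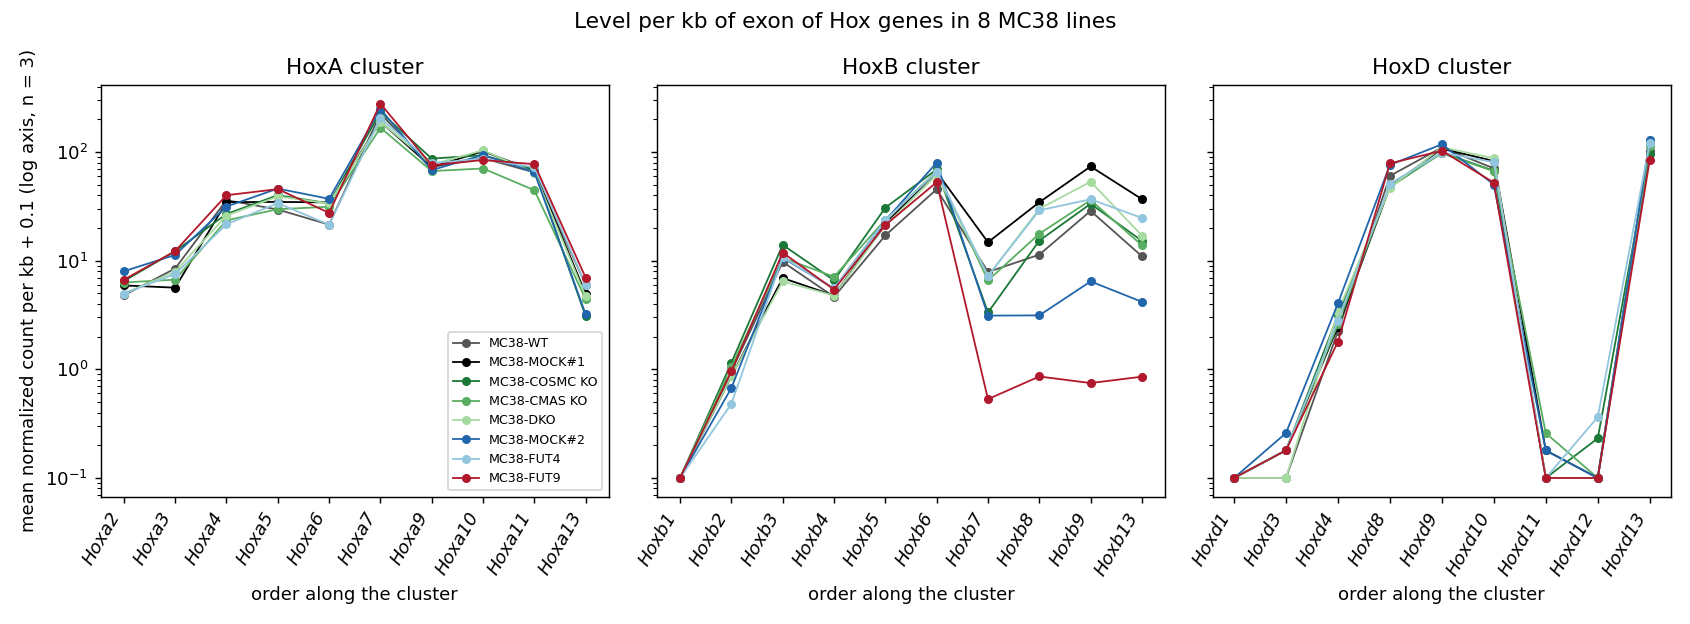
Mean normalized count per kilobase of exon in each of the 8 lines for the HoxA, HoxB and HoxD genes in cluster order from the anterior to the posterior end, with 0.1 added, on a log axis. Hoxa7 lies highest, and in HoxB the lines lie close together up to Hoxb6 and spread widely at Hoxb7, Hoxb8, Hoxb9 and Hoxb13.

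What varied between the lines was mainly the posterior end of HoxB. The highest line mean was 113.6 times the lowest for Hoxb9, 48.6 times for Hoxb13, 45.3 times for Hoxb8 and 34.0 times for Hoxb7, each highest in MC38-MOCK#1 and lowest in MC38-FUT9. For the other 20 members with a line mean of at least 10 this ratio ran from 1.21 (Hoxd9) to 2.33 (Hoxd4). The part from Hoxb9 to Hoxb7 is short, with gaps of 5309 and 1307 bases between Hoxb9, Hoxb8 and Hoxb7. Hoxb6 begins 2313 bases after Hoxb7, whereas Hoxb13 lies 74009 bases before Hoxb9. Because lowest means rested on 2 to 6 normalized counts over 3 samples, the ratios are imprecise; by an exact interval on the estimated reads, which covers counting error only, MC38-MOCK#1 over MC38-FUT9 was 116.5 (95% interval 53.2 to 319) for Hoxb9, 49.8 (22.6 to 137) for Hoxb13, 41.8 (20.9 to 97.7) for Hoxb8 and 41.5 (11.1 to 349) for Hoxb7.

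Hoxb9 (ENSMUSG00000020875, chromosome 11, 96271457 to 96276595), a gene of the thoracic trunk, read 64, 78 and 79 normalized counts in MC38-WT, 161, 195 and 212 in MC38-MOCK#1, 93, 91 and 73 in MC38-COSMC KO, and 101, 91 and 86 in MC38-CMAS KO. It read 146, 117 and 148 in MC38-DKO, 23, 9 and 17 in MC38-MOCK#2, 120, 68 and 95 in the line labelled MC38-FUT4 and 1, 2 and 2 in MC38-FUT9. Every MC38-MOCK#1 sample lay above all samples of the other lines, and every MC38-FUT9 sample below all of them. Going down the order of the 8 line means, 3 of the 7 steps separated neighbours without overlap: from MC38-MOCK#1 to MC38-DKO, from MC38-WT to MC38-MOCK#2 and from MC38-MOCK#2 to MC38-FUT9. The middle lines, MC38-FUT4, MC38-CMAS KO, MC38-COSMC KO and MC38-WT, overlapped with their neighbours.

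Hoxb13 (ENSMUSG00000049604, 96194316 to 96197447), the most posterior HoxB gene and a marker of the hindgut and prostate, read 25, 29 and 18 in MC38-WT, 57, 77 and 109 in MC38-MOCK#1, 47, 30 and 23 in MC38-COSMC KO, and 41, 19 and 31 in MC38-CMAS KO. The values were 36, 38 and 38 in MC38-DKO, 8, 8 and 11 in MC38-MOCK#2, 64, 38 and 61 in the line labelled MC38-FUT4 and 2, 2 and 1 in MC38-FUT9. Here MC38-MOCK#1 and MC38-FUT4 overlapped, and in the order of the means 2 of 7 steps were free of overlap, those from MC38-WT to MC38-MOCK#2 and from MC38-MOCK#2 to MC38-FUT9. Hoxb8 (ENSMUSG00000056648, 96281905 to 96285315), which keeps myeloid progenitors dividing when forced on, read 23, 34 and 32 in MC38-WT, 67, 85 and 120 in MC38-MOCK#1, 49, 37 and 34 in MC38-COSMC KO, and 50, 45 and 44 in MC38-CMAS KO. Its values were 94, 72 and 70 in MC38-DKO, 6, 7 and 11 in MC38-MOCK#2, 88, 58 and 83 in the line labelled MC38-FUT4 and 4, 2 and 0 in MC38-FUT9. MC38-MOCK#1, MC38-DKO and MC38-FUT4 overlapped at the top, and 3 of 7 steps were free of overlap.

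Hoxb7 (ENSMUSG00000038721, 96286623 to 96290162), another trunk gene, was the lowest of the 4, with 11, 8 and 17 normalized counts in MC38-WT, 14, 23 and 31 in MC38-MOCK#1, 4, 5 and 6 in MC38-COSMC KO, and 8, 10 and 12 in MC38-CMAS KO. It read 5, 15 and 13 in MC38-DKO, 5, 2 and 7 in MC38-MOCK#2, 10, 10 and 13 in the line labelled MC38-FUT4 and 1, 0 and 1 in MC38-FUT9. MC38-FUT9 was below every other sample, and 2 of 7 steps were free of overlap. Its neighbour Hoxb6, a gene of the mesoderm of the trunk, read 111, 84 and 72 in MC38-WT, 138, 132 and 115 in MC38-MOCK#1, 174, 168 and 128 in MC38-MOCK#2, 137, 140 and 109 in the line labelled MC38-FUT4 and 108, 106 and 96 in MC38-FUT9. In the knockout lines Hoxb6 read 116, 132 and 159 (COSMC KO), 79, 136 and 176 (CMAS KO) and 93, 115 and 154 (DKO). Unlike the 4 genes before it, Hoxb6 stayed between 72 and 176 in every sample.

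**Figure D2:**
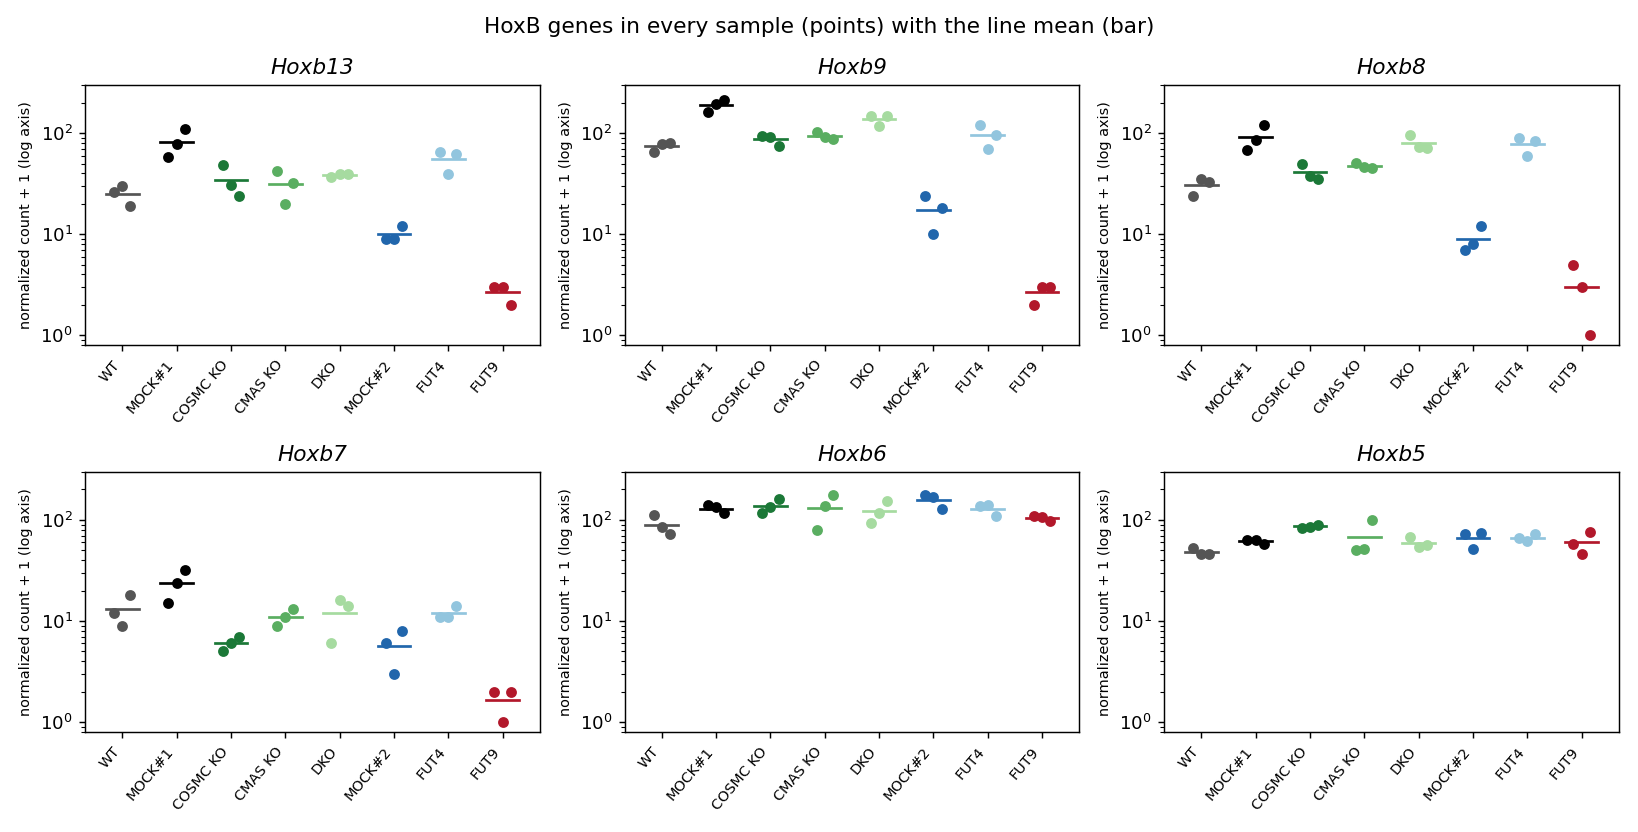
Normalized count + 1 on a log axis for Hoxb13, Hoxb9, Hoxb8, Hoxb7, Hoxb6 and Hoxb5 in each of the 24 samples by line, points being samples and bars line means. Hoxb13, Hoxb9, Hoxb8 and Hoxb7 are highest in MC38-MOCK#1 and lowest in MC38-FUT9, while Hoxb6 stays between 72 and 176 throughout.

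The share of all HoxB normalized counts that came from Hoxb7, Hoxb8, Hoxb9 and Hoxb13 shows the same within each library and does not depend on its scaling. It was 55.6%, 62.3% and 67.3% in MC38-MOCK#1, 56.8%, 54.6% and 52.0% in MC38-DKO, and 50.9%, 40.9% and 51.0% in the line labelled MC38-FUT4. In MC38-MOCK#2 it was 12.3%, 8.97% and 13.9%, and in MC38-FUT9 it was 3.39%, 2.79% and 1.57%. MC38-WT (35.1%, 44.1% and 47.7%), MC38-CMAS KO (51.3%, 40.4% and 32.8%) and MC38-COSMC KO (40.0%, 37.0% and 29.0%) lay between. No sample of MC38-MOCK#2 or MC38-FUT9 reached the lowest value of any other line. Line means of the whole-cluster sums ran from 1443 to 2015 normalized counts for HoxA, from 710 to 881 for HoxD, from 235 to 616 for HoxB and from 150.0 to 358 for HoxC. In bulk RNA, fewer cells with these transcripts and less RNA per cell cannot be told apart.

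**Figure D3:**
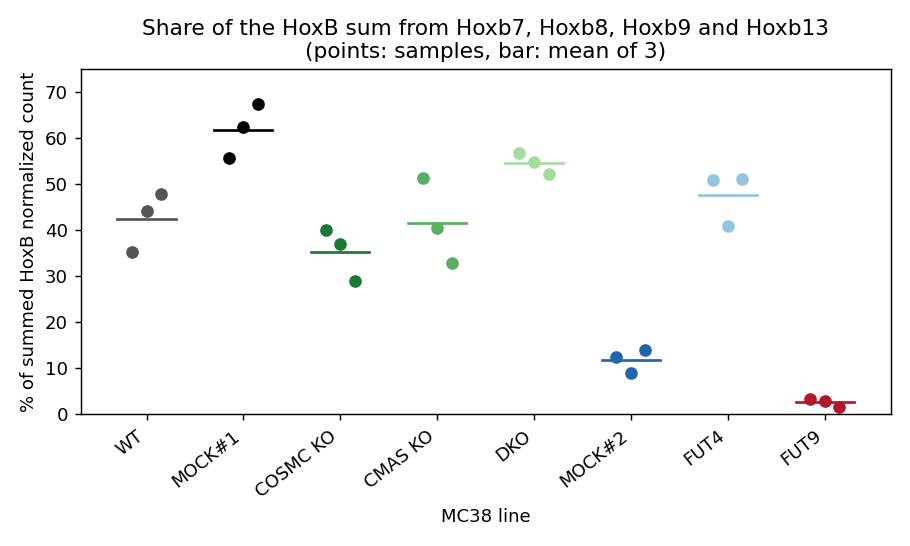
Share of the summed HoxB normalized counts, in percent, that came from Hoxb7, Hoxb8, Hoxb9 and Hoxb13 in each sample (points), by line, with the line mean as a bar. MC38-MOCK#1 samples lie at 55.6% to 67.3%, MC38-MOCK#2 at 8.97% to 13.9% and MC38-FUT9 at 1.57% to 3.39%.

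The lines were then compared in pairs, 5 of them against MC38-MOCK#1 and 2 against MC38-MOCK#2, so that comparisons with the same control share its samples. Each used limma on log2(normalized count + 1) with Benjamini-Hochberg adjustment over all genes tested, a gene being called at an adjusted p under 0.05, and differences are on that log2 scale, which understates the change of low genes. MC38-MOCK#2 against MC38-MOCK#1 compares the control lines of both systems, which also differ in construct and passage. Of 27 members tested 7 were called, 2 higher and 5 lower, against 11.3% of all genes tested (5.3% higher, 6.02% lower), and the median difference was 0.012 over the members and -0.0094 over all genes. Without overlap between the samples, 3 members lay above and 7 below (14% and 14.7% of all genes). All 4 posterior HoxB genes fell: Hoxb9 (-3.54, SE 0.331, limma adjusted p = 0.00218, means 11.6-fold apart), Hoxb8 (-3.35, SE 0.323, adjusted p = 0.00237), Hoxb13 (-3.00, SE 0.302, adjusted p = 0.00261) and Hoxb7 (-2.11, SE 0.487, adjusted p = 0.0389). Every MC38-MOCK#2 sample lay below every MC38-MOCK#1 sample for each of them. Leaving out any of the 6 samples ended the call of Hoxb7 (adjusted p 0.0583 to 0.143) but of none of the other 3, whose adjusted p stayed between 0.0118 and 0.0412.

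Among the lines of the activator system the posterior HoxB genes went both ways from MC38-MOCK#2. In the line labelled MC38-FUT4, 5 of 26 members were called (4 higher, 1 lower), against 16.1% of all genes (8.1% higher, 8.04% lower), with a median of -0.093 over the members and 0 over all genes. Without overlap, 8 members lay above and 4 below (16% and 16.1% of all genes). Hoxb8 rose by 3.12 (SE 0.305, limma adjusted p = 0.00124, means 9.54-fold apart), Hoxb9 by 2.51 (SE 0.375, adjusted p = 0.00564) and Hoxb13 by 2.45 (SE 0.298, adjusted p = 0.00274). Hoxb7 was 1.19 higher, with an adjusted p of 0.129. Without MC38-FUT4 sample 1 or sample 3 Hoxb9 was no longer called (adjusted p 0.0516 and 0.0551), and the calls of Hoxb8 and Hoxb13 held without each sample in turn. In MC38-FUT9, 5 of 26 members were called, all lower, against 24.1% of all genes (12.1% higher, 12% lower), with medians of -0.079 and 0.0088. Without overlap, 3 members lay above and 6 below (18.6% and 18.2% of all genes).

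In that MC38-FUT9 comparison Hoxb9 (-2.64, SE 0.435, limma adjusted p = 0.00626), Hoxb13 (-1.92, SE 0.355, adjusted p = 0.00953) and Hoxb7 (-1.72, SE 0.510, adjusted p = 0.0498) fell, and so did Hoxb6 (-0.58, SE 0.146, adjusted p = 0.0290). Hoxb8 (-1.83, adjusted p = 0.0809) did not pass, with values of 4, 2 and 0 against 6, 7 and 11. Since Hoxb9, Hoxb13, Hoxb8 and Hoxb7 were at 0 to 4 normalized counts in MC38-FUT9, their ratio of MC38-MOCK#2 over MC38-FUT9 in estimated reads was wide, at 10.05 (95% interval 4.27 to 28.8) for Hoxb9, 5.36 (2.13 to 16.0) for Hoxb13, 3.52 (1.5 to 9.18) for Hoxb8 and 8.04 (1.79 to 73.9) for Hoxb7. The call of Hoxb7 ended without any sample but MC38-MOCK#2 sample 2 (adjusted p 0.0984 to 0.145), and that of Hoxb6 without any but MC38-MOCK#2 sample 3 (0.0838 to 0.10). Hoxb9 and Hoxb13 were called without each sample in turn. MC38-FUT4 and MC38-FUT9 share MC38-MOCK#2, so their values are not independent of its level.

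Against MC38-MOCK#1, MC38-WT had 3 of 25 members called, all lower, against 5.51% of all genes (2.7% higher, 2.81% lower), with medians of -0.14 over the members and -0.0055 over all genes. Without overlap, 1 member lay above and 8 below (11% and 12.4% of all genes). The 3 called were Hoxb13 (-1.69, SE 0.306, limma adjusted p = 0.0263), Hoxb8 (-1.56, SE 0.277, adjusted p = 0.0248) and Hoxb9 (-1.35, SE 0.163, adjusted p = 0.00706), with all MC38-WT samples below all MC38-MOCK#1 samples. The calls of Hoxb13 and Hoxb8 ended without any 1 of the 6 samples (adjusted p 0.0629 to 0.158 and 0.0657 to 0.150). Hoxb9 was not called without MC38-WT sample 3 (0.0594), MC38-MOCK#1 sample 2 (0.097) or MC38-MOCK#1 sample 3 (0.0505). The MC38-WT line differs from MC38-MOCK#1 in construct, puromycin and passage together.

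In MC38-COSMC KO, 6 of 26 members were called, 1 higher and 5 lower, against 11.6% of all genes (6.17% higher, 5.39% lower), with medians of 0.023 and 0. Without overlap, 5 members lay above and 6 below (14.2% and 14.1% of all genes). The lower ones included all 4 posterior HoxB genes: Hoxb7 (-1.93, SE 0.376, limma adjusted p = 0.0196), Hoxb13 (-1.27, SE 0.329, adjusted p = 0.0497), Hoxb8 (-1.14, SE 0.254, adjusted p = 0.0304) and Hoxb9 (-1.13, SE 0.154, adjusted p = 0.00526). Each of these 4 lay below MC38-MOCK#1 in every sample. For Hoxb9, Hoxb8 and Hoxb13, also called lower in MC38-WT, the MC38-WT means were below those of MC38-COSMC KO. They were 73.7 against 85.7, 29.7 against 40 and 24 against 33.3, with overlapping samples. Hoxb7 went the other way, at 11, 8 and 17 in MC38-WT against 4, 5 and 6. The paper set aside genes that changed the same way in MC38-WT and the knockout. Whether the differences belong to the knockout or to MC38-MOCK#1 was not tested. The calls of Hoxb13 and Hoxb8 ended without any 1 sample (adjusted p 0.0637 to 0.191 and 0.0535 to 0.138), that of Hoxb7 without any but MC38-MOCK#1 sample 1 (0.0516 to 0.0941), and that of Hoxb9 without MC38-MOCK#1 sample 2 (0.0533) or MC38-COSMC KO sample 2 (0.0509).

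In MC38-CMAS KO, 2 of 27 members were called, both lower, against 5.76% of all genes (3.02% higher, 2.73% lower), with medians of -0.16 and 0. Without overlap, 1 member lay above and 9 below (11.8% and 12.5% of all genes). The called genes were Hoxb9 (-1.02, SE 0.140, limma adjusted p = 0.0112) and Hoxa10 (-0.53, SE 0.0963, adjusted p = 0.0271). By limma Hoxb13 (-1.40, adjusted p = 0.0655), Hoxb8 (-0.91, adjusted p = 0.0689) and Hoxb7 (-1.05, adjusted p = 0.146) lay below MC38-MOCK#1 in all samples without passing the test. Hoxb9 lost its call without MC38-MOCK#1 sample 2 (0.085) or any MC38-CMAS KO sample (0.0506, 0.0782 and 0.0571 without samples 1, 2 and 3). In MC38-DKO limma called 0 of 25 members, against 0.092% of all genes (0.023% higher, 0.069% lower), and 2 were at an unadjusted p under 0.05: Hoxb13 (-1.05, 95% interval -1.62 to -0.48, adjusted p = 0.314) and Hoxb9 (-0.46, 95% interval -0.81 to -0.11, adjusted p = 0.495). Both lay below all MC38-MOCK#1 samples, while Hoxb8 (-0.17, 95% interval -0.71 to 0.36) and Hoxb7 (-1.03, 95% interval -2.11 to 0.042) overlapped with them. The median over the members was -0.059, against 0 over all genes, and 0 members lay above and 4 below without overlap (5.29% and 5.91% of all genes).

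**Figure D4:**
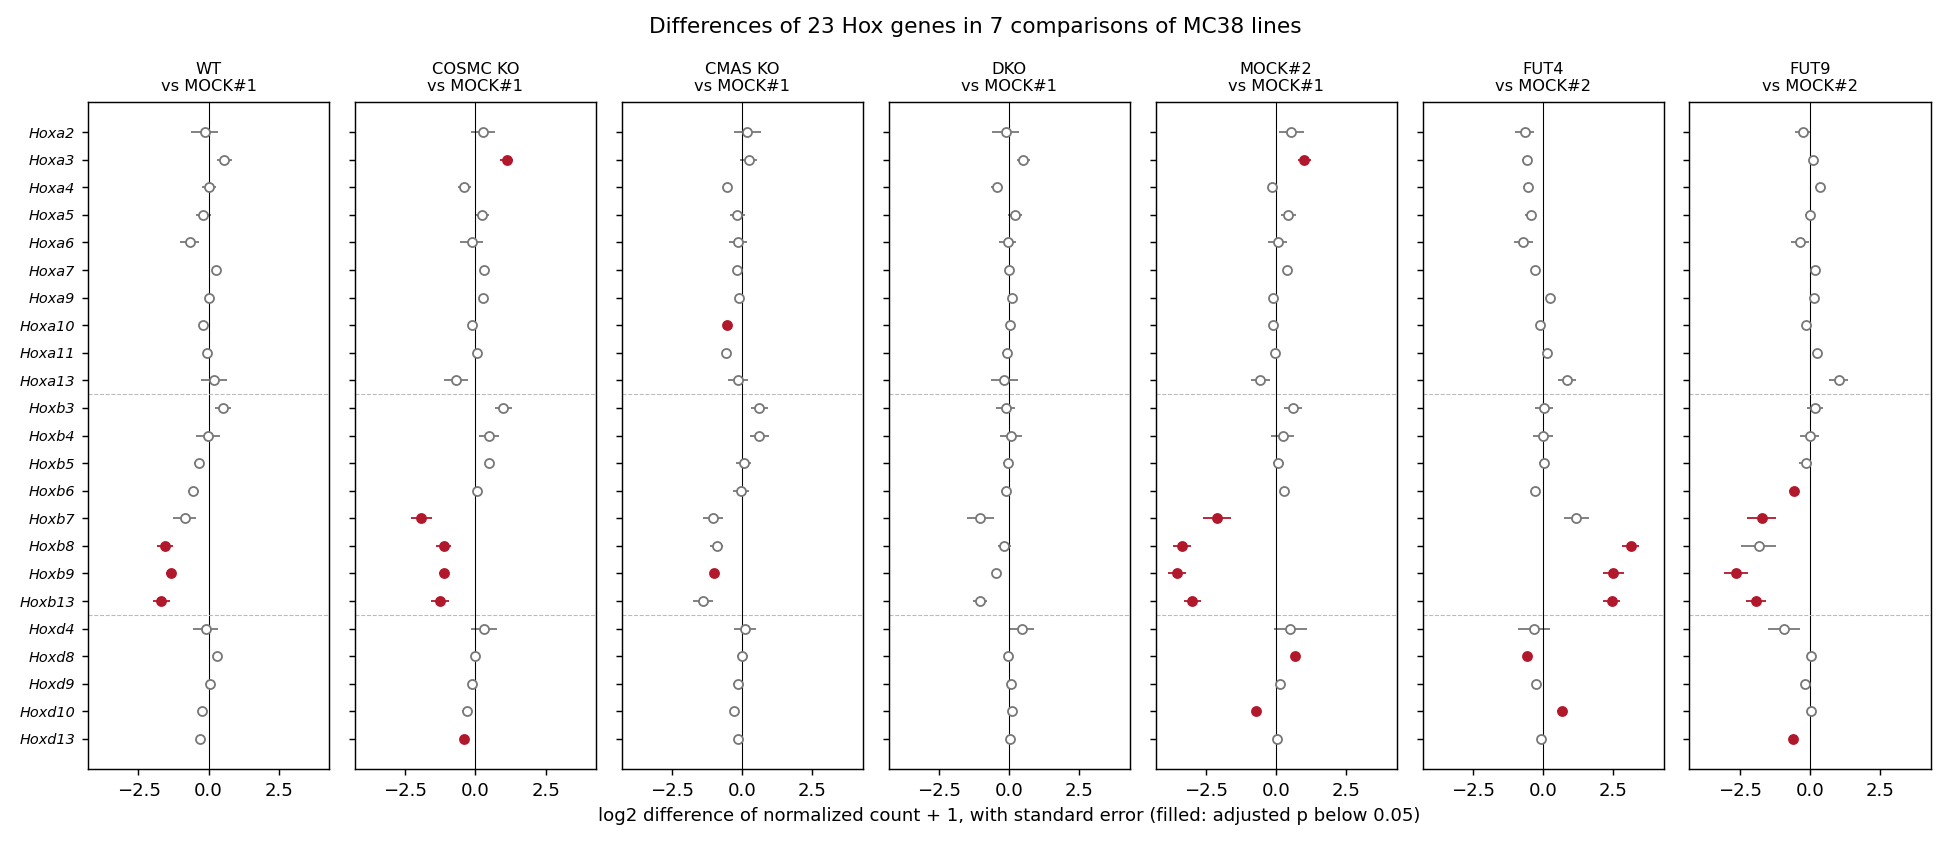
Difference on the log2(normalized count + 1) scale, with its standard error, for 23 members with a line mean of at least 10 in each of the 7 pairwise comparisons, filled points being called by limma. Hoxb13, Hoxb9, Hoxb8 and Hoxb7 reach from -3.54 (Hoxb9, MC38-MOCK#2 against MC38-MOCK#1) to 3.12 (Hoxb8, MC38-FUT4 against MC38-MOCK#2), and the called differences of the other members lie between -0.71 and 1.11.

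Passages were the same in the 4 CRISPR-Cas9 lines, and in MC38-MOCK#2 and MC38-FUT9, and differed between these sets and from MC38-WT. At passage 6 Hoxb9 read 212 in MC38-MOCK#1, 148 in MC38-DKO, 86 in MC38-CMAS KO, 73 in MC38-COSMC KO, 23 in MC38-MOCK#2 and 1 in MC38-FUT9. At passage 7 it read 64 in MC38-WT, 9 in MC38-MOCK#2, 120 and 95 in the line labelled MC38-FUT4 and 2 in MC38-FUT9. At passage 6 MC38-MOCK#1 was thus the highest and MC38-FUT9 the lowest, and at passage 7 MC38-FUT4 and MC38-FUT9 lay farthest apart. At passage 8 Hoxb9 read 78 in MC38-WT, 17 in MC38-MOCK#2, 68 in MC38-FUT4 and 2 in MC38-FUT9. The lines were not level over passages 4, 5 and 6. Summed over Hoxb7, Hoxb8, Hoxb9 and Hoxb13, MC38-MOCK#1 rose through 299, 380 and 472 normalized counts, and MC38-COSMC KO fell through 193, 163 and 136. MC38-CMAS KO read 200, 165 and 173 and MC38-DKO 281, 242 and 269. The gap between MC38-MOCK#1 and MC38-COSMC KO thus widened with passage, at 1 sample per passage. Mesenchymal markers moved in the same comparisons: of 9, limma called 5 higher in MC38-WT, 4 higher in MC38-COSMC KO, 6 higher in MC38-CMAS KO, 0 in MC38-DKO (2 at an unadjusted p under 0.05) and 5 higher in MC38-MOCK#2, all against MC38-MOCK#1, and 1 higher and 4 lower in MC38-FUT4 and 2 higher and 1 lower in MC38-FUT9, against MC38-MOCK#2. Their summed level was 36168 to 40626 normalized counts in MC38-MOCK#1, 34232 to 41169 in MC38-DKO, 37773 to 52944 in MC38-WT, 40805 to 44100 in MC38-COSMC KO, 44762 to 49512 in MC38-CMAS KO, 39126 to 49066 in MC38-MOCK#2, 41372 to 45772 in MC38-FUT4 and 34688 to 47352 in MC38-FUT9. Of all genes tested, 5.51%, 11.6%, 5.76%, 0.092% and 11.3% were called against MC38-MOCK#1, in the order of the marker counts. Against MC38-MOCK#2 it was 16.1% in MC38-FUT4 and 24.1% in MC38-FUT9. The part of these markers in the Hox differences was not tested.

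The HoxD genes varied less, and neighbours went different ways. Hoxd13 read 248, 272 and 236 normalized counts in MC38-WT, 321, 321 and 301 in MC38-MOCK#1, 216, 259 and 235 in MC38-COSMC KO, and 270, 289 and 279 in MC38-CMAS KO. It read 325, 310 and 326 in MC38-DKO, 351, 301 and 301 in MC38-MOCK#2, 317, 313 and 274 in the line labelled MC38-FUT4 and 215, 202 and 211 in MC38-FUT9. It fell in MC38-COSMC KO against MC38-MOCK#1 (-0.41, SE 0.0932, limma adjusted p = 0.0321) and in MC38-FUT9 against MC38-MOCK#2 (-0.60, SE 0.0922, adjusted p = 0.00490), without overlap in either. The first call ended without any 1 sample (adjusted p 0.0561 to 0.117), and the second held without each (0.0128 to 0.0309).

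Hoxd10, a limb and spinal cord gene, read 137, 118 and 130 in MC38-WT, 154, 160 and 136 in MC38-MOCK#1, 130, 139 and 97 in MC38-COSMC KO and 138, 117 and 107 in MC38-CMAS KO. Its values were 153, 165 and 159 in MC38-DKO, 97, 91 and 85 in MC38-MOCK#2, 173, 122 and 144 in the line labelled MC38-FUT4 and 109, 93 and 82 in MC38-FUT9. MC38-MOCK#2 lay below MC38-MOCK#1 (-0.71, SE 0.123, limma adjusted p = 0.0148) and MC38-FUT4 above MC38-MOCK#2 (0.67, SE 0.156, adjusted p = 0.0301), both without overlap. Hoxd8, a gene of the anterior trunk, went the opposite way, with 211, 187 and 228 in MC38-MOCK#2 against 142, 126 and 126 in MC38-MOCK#1 (0.66, SE 0.117, adjusted p = 0.0162) and 141, 129 and 150 in MC38-FUT4 (-0.57, SE 0.117, adjusted p = 0.0190). Elsewhere Hoxd8 read 133, 182 and 181 in MC38-WT, 143, 125 and 123 in MC38-COSMC KO, 141, 99 and 162 in MC38-CMAS KO, 133, 120 and 131 in MC38-DKO and 215, 204 and 227 in MC38-FUT9. By their means MC38-MOCK#2 and MC38-FUT9 were thus the highest lines for Hoxd8 and the lowest for Hoxd10.

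Some of these HoxD calls rested on particular samples. For MC38-MOCK#2 against MC38-MOCK#1, Hoxd10 lost its call without MC38-MOCK#1 sample 1 (adjusted p = 0.0655 by limma), MC38-MOCK#1 sample 2 (0.0777) or MC38-MOCK#2 sample 2 (0.0601), and Hoxd8 without MC38-MOCK#1 sample 2 (0.0808), MC38-MOCK#1 sample 3 (0.055) or MC38-MOCK#2 sample 1 (0.0629). For MC38-FUT4 against MC38-MOCK#2, Hoxd10 kept its call only without MC38-FUT4 sample 2 (0.0706 to 0.105 otherwise), and Hoxd8 lost it without MC38-MOCK#2 sample 1 (0.0645) or MC38-FUT4 sample 1, 2 or 3 (0.0716, 0.0516 and 0.0557). Between both genes Hoxd9 was never called, with line means from 207 ± 49.1 (SD, n = 3, MC38-CMAS KO) to 251 ± 33.2 (MC38-MOCK#2). Hoxd4, near the anterior end, ran from 5.0 ± 1.73 (MC38-FUT9) to 11.7 ± 7.51 (MC38-MOCK#2).

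Hoxa3 and Hoxa10 passed the test in at least 1 of the pairs. Hoxa3, a gene of the thymus and parathyroid, read 29, 42 and 29 in MC38-MOCK#1 against 74, 58 and 87 in MC38-COSMC KO (1.11, SE 0.234, limma adjusted p = 0.0251) and 69, 58 and 75 in MC38-MOCK#2 (1.01, SE 0.219, adjusted p = 0.0320). It read 53, 36 and 62 in MC38-WT, 28, 38 and 53 in MC38-CMAS KO, 53, 46 and 42 in MC38-DKO, 44, 44 and 46 in MC38-FUT4 and 71, 67 and 81 in MC38-FUT9. Both calls ended without any 1 of the 6 samples (adjusted p 0.0565 to 0.0971 and 0.0546 to 0.10), and 27.1% of its exon bases are shared with other genes. Hoxa10, a gene of the uterus and the lower limb, read 234, 250 and 207 in MC38-CMAS KO against 343, 336 and 318 in MC38-MOCK#1, the call given with that comparison, which ended without any 1 sample (0.0571 to 0.121). Hoxa10 stood elsewhere at 276, 284 and 301 (MC38-WT), 260, 338 and 317 (MC38-COSMC KO), 389, 324 and 303 (MC38-DKO), 339, 325 and 257 (MC38-MOCK#2), 295, 292 and 261 (MC38-FUT4) and 254, 313 and 260 (MC38-FUT9).

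A test over all 8 lines together (limma F-test, 24 samples) called 13 of 28 members tested, where 37.8% of all genes were called, a share not far above that background. The smallest adjusted p values belonged to Hoxb9 (5.45e-13), Hoxb13 (2.42e-09) and Hoxb8 (3.30e-09), and among the others were Hoxd13 (1.66e-05), Hoxb7 (2.62e-05), Hoxa7 (5.99e-05), Hoxd8 (0.000297), Hoxd10 (0.000598), Hoxa3 (0.00169), Hoxa11 (0.00588), Hoxa4 (0.0156) and Hoxa10 (0.0168). Of these, Hoxa7, Hoxa11 and Hoxa4 passed no pairwise test.

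Hoxa7 read 622, 644 and 679 in MC38-WT, 444, 589 and 611 in MC38-MOCK#1, 704, 639 and 673 in MC38-COSMC KO and 491, 504 and 447 in MC38-CMAS KO. It read 582, 542 and 514 in MC38-DKO, 683, 763 and 700 in MC38-MOCK#2, 630, 514 and 624 in MC38-FUT4 and 827, 751 and 827 in MC38-FUT9, which was the highest line. Hoxa11, a gene of the forearm and the uterus, read 164, 130 and 151 in MC38-WT, 169, 163 and 129 in MC38-MOCK#1, 152, 154 and 167 in MC38-COSMC KO and 103, 106 and 96 in MC38-CMAS KO. Its other values were 115, 146 and 181 in MC38-DKO, 147, 157 and 143 in MC38-MOCK#2, 187, 168 and 141 in MC38-FUT4 and 174, 162 and 194 in MC38-FUT9. The 3 MC38-CMAS KO samples were the lowest of the 24 for Hoxa11.

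Hoxa4 read 68, 40 and 64 in MC38-WT, 56, 55 and 54 in MC38-MOCK#1, 31, 53 and 44 in MC38-COSMC KO and 38, 35 and 39 in MC38-CMAS KO. It read 36, 52 and 36 in MC38-DKO, 50, 47 and 53 in MC38-MOCK#2, 32, 36 and 35 in MC38-FUT4 and 59, 70 and 62 in MC38-FUT9. For Hoxa4 the MC38-FUT9 samples overlapped only with those of MC38-WT at the top.

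**Figure D5:**
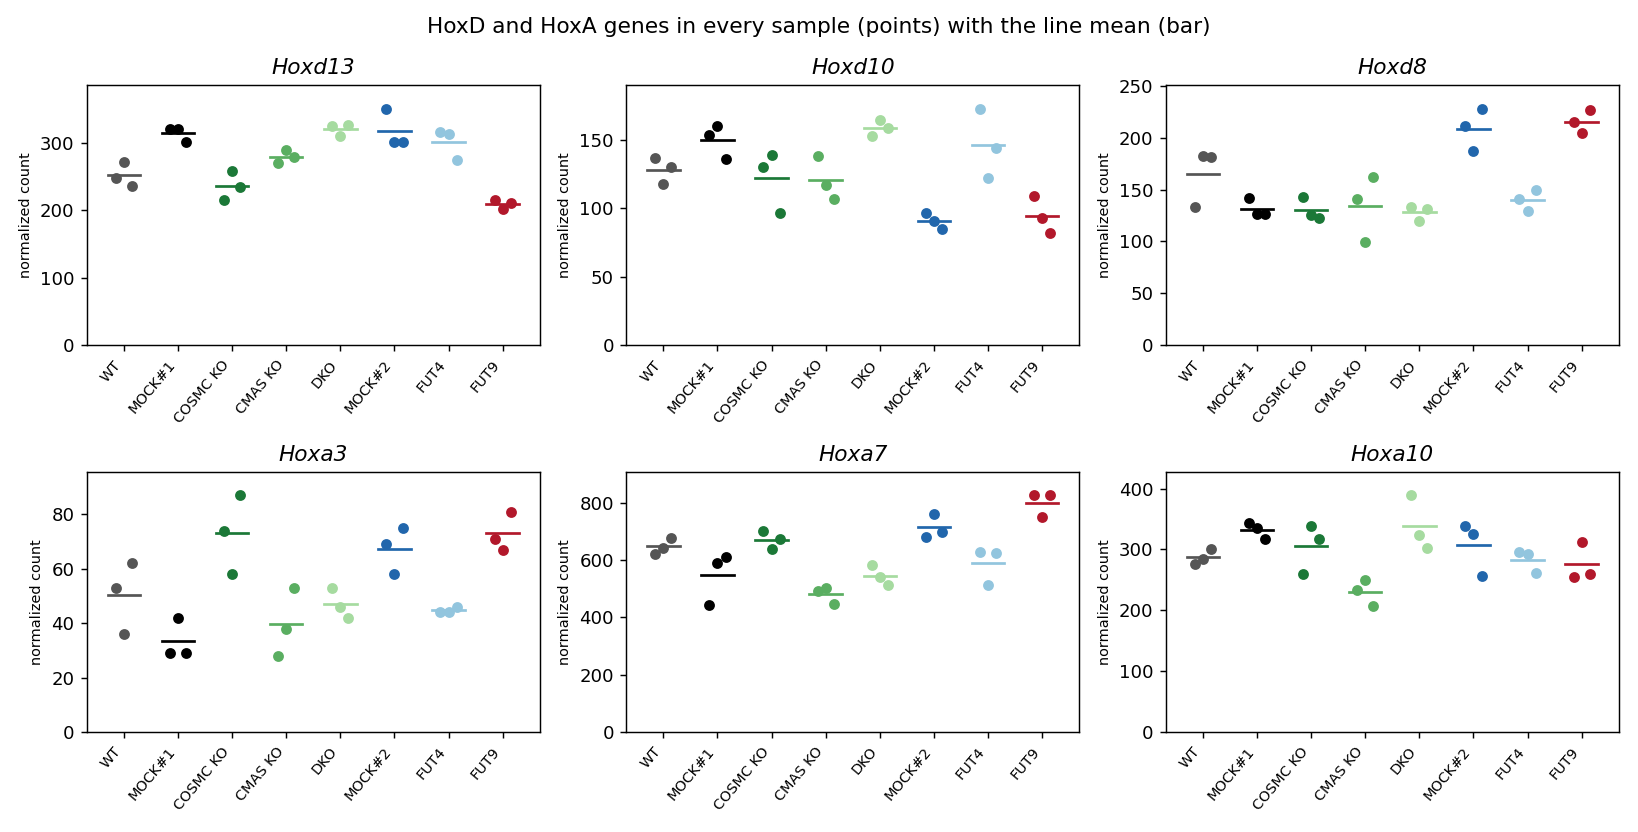
Normalized count of Hoxd13, Hoxd10, Hoxd8, Hoxa3, Hoxa7 and Hoxa10 in each of the 24 samples by line, points being samples and bars line means, on linear axes from 0. By the means Hoxd8 is highest in MC38-MOCK#2 and MC38-FUT9, the lines where Hoxd10 is lowest, and Hoxa7 lies between 444 and 827.

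Members called neither in a pair nor in the F-test had line means within these ranges (mean ± SD, n = 3). In HoxA, Hoxa9, a leukaemia-associated gene, ran from 372 ± 13.3 (MC38-CMAS KO) to 485 ± 11.8 (MC38-COSMC KO), Hoxa5, a gene of the lung, from 55.3 ± 6.43 (MC38-WT) to 86.3 ± 15.5 (MC38-MOCK#2) and Hoxa6 from 18.7 ± 6.03 (MC38-WT) to 32.3 ± 12.5 (MC38-MOCK#2). Hoxa2 ran from 8.33 ± 1.53 (MC38-WT) to 14.0 ± 2.65 (MC38-MOCK#2) and Hoxa13 from 7.33 ± 4.04 (MC38-COSMC KO) to 17.0 ± 5.20 (MC38-FUT9). In HoxB, Hoxb5 ran from 47.3 ± 4.04 (MC38-WT) to 85.3 ± 3.21 (MC38-COSMC KO), Hoxb4, known for its role in blood stem cells, from 11.7 ± 3.51 (MC38-WT) to 18.0 ± 1.73 (MC38-CMAS KO) and Hoxb3 from 27 ± 10.0 (MC38-DKO) to 59.0 ± 16.1 (MC38-COSMC KO).

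The effect of the COSMC knockout was compared between cells with CMAS intact (MC38-COSMC KO against MC38-MOCK#1) and cells without it (MC38-DKO against MC38-CMAS KO) as an interaction over those 12 samples. Of 27 members 8 were called, 7 with a more positive effect in the CMAS KO background and 1 with a more negative effect, where 19% of all genes were called (9.47% positive, 9.52% negative). All 4 posterior HoxB genes were among the 7: their values in MC38-COSMC KO lay below MC38-MOCK#1, whereas their means in MC38-DKO lay above those in MC38-CMAS KO. Samples of MC38-DKO and MC38-CMAS KO did not overlap for Hoxb9 and Hoxb8. They overlapped for Hoxb13 (36 to 38 against 19 to 41) and Hoxb7 (5 to 15 against 8 to 12). MC38-DKO against MC38-CMAS KO was not tested as a pair. The differences and their errors are given with the additional observations.

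Other genes that work with Hox genes or lie beside them were counted by list. These counts stand beside the share of all genes called in the same comparison. Against MC38-MOCK#1 it was 5.51% in MC38-WT, 11.6% in MC38-COSMC KO, 5.76% in MC38-CMAS KO, 0.092% in MC38-DKO and 11.3% in MC38-MOCK#2. Against MC38-MOCK#2 it was 16.1% in MC38-FUT4 and 24.1% in MC38-FUT9. Whether any list exceeded its share was not tested. The HoxC cluster, the remaining Hox cluster of the mouse, had 6 of 9 genes tested, and against MC38-MOCK#1 limma called 2 lower in MC38-WT, 1 higher and 1 lower in MC38-COSMC KO, 2 lower in MC38-CMAS KO and 3 lower in MC38-MOCK#2. Against MC38-MOCK#2 it called 5 higher in MC38-FUT4 and 3 higher in MC38-FUT9. Hoxc10, a posterior gene, read 81, 73 and 65 in MC38-MOCK#1, 98, 99 and 83 in MC38-DKO, 3, 3 and 5 in MC38-MOCK#2, 17, 23 and 19 in MC38-FUT4 and 2, 1 and 0 in MC38-FUT9. The values of Hoxc10 in the remaining lines were 10, 14 and 15 (MC38-WT), 12, 12 and 19 (MC38-COSMC KO) and 9, 6 and 8 (MC38-CMAS KO). Its level was highest in MC38-DKO and MC38-MOCK#1 and lowest in MC38-MOCK#2 and MC38-FUT9. Other HoxC genes shared this order in part or not at all. By their means Hoxc5 and Hoxc4 were highest in MC38-MOCK#1 (84.3 and 68.7) and lowest in MC38-MOCK#2 (16.7 and 11.7). Hoxc9 and Hoxc6 had their highest means in MC38-FUT4 (77.3 and 96.3). The MC38-FUT9 level of Hoxc5 and Hoxc4 differed from the order of Hoxc10. In MC38-FUT9 Hoxc5 read 45, 57 and 62 against 16, 18 and 16 in MC38-MOCK#2, and Hoxc4 read 30, 29 and 48 against 12, 10 and 13. Hoxc8 was highest in MC38-FUT4 (25, 26 and 13) and read 3, 3 and 1 in MC38-MOCK#1. The median difference over the 6 HoxC genes ran from -1.46 (MC38-MOCK#2) to 1.88 (MC38-FUT4), where the median over all genes stayed between -0.0094 and 0.0088.

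In MC38-DKO limma called 0 genes of all the lists, and those at an unadjusted p under 0.05 were 1 of 6 HoxC genes, 1 of 6 noncoding RNAs, 1 of 12 flanking genes, 0 of 9 TALE cofactors, 1 of 2 posterior regulators, 2 of 28 Polycomb subunits, 1 of 16 MLL and Trithorax subunits and 1 of 11 retinoic acid genes. In the other pairs 6 to 8 of 16 noncoding RNAs and microRNA hosts of the Hox clusters were tested and 0 called, with 0 or 1 at an unadjusted p under 0.05. The F-test over the 8 lines called 1 of 8 of them and the interaction 2 of 7. Of 14 genes flanking the 3 clusters 12 were tested (10 in MC38-FUT9), with 1 called lower in MC38-WT, 4 in MC38-COSMC KO, 1 in MC38-CMAS KO and 2 in MC38-MOCK#2, 0 in MC38-FUT4 (5 at an unadjusted p under 0.05), and 1 higher and 6 lower in MC38-FUT9. List medians ran from -0.28 to 0.068 for the flanking genes and from -0.15 to 0.18 for the noncoding RNAs.

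Pbx, Meis and Pknox proteins, the TALE homeodomain cofactors, bind DNA together with Hox proteins. Of these 9 genes 0 were called in MC38-WT, MC38-CMAS KO and MC38-MOCK#2 (2, 1 and 4 at an unadjusted p under 0.05 in limma), 1 was lower in MC38-COSMC KO and 1 in MC38-FUT4, and 1 was higher and 2 lower in MC38-FUT9, with list medians from -0.17 to 0.11. Cdx2, a caudal gene that acts upstream of Hox genes in the gut, did not exceed 1 normalized count in any sample. Of the 2 to 3 posterior regulators tested, 1 was higher in MC38-CMAS KO and 1 in MC38-FUT9.

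Polycomb subunits, all 28 tested, had 1 called higher and 1 lower in MC38-WT, 2 higher and 1 lower in MC38-COSMC KO, 0 in MC38-CMAS KO (6 at an unadjusted p under 0.05 in limma) and 2 higher and 2 lower in MC38-MOCK#2. Against MC38-MOCK#2 they had 2 higher and 8 lower in MC38-FUT4 and 9 higher and 6 lower in MC38-FUT9, with list medians from -0.19 to 0.17. Epop, an accessory protein of the Polycomb complex that writes a repressive histone mark, read 2, 2 and 2 in MC38-FUT9 against 26, 19 and 16 in MC38-MOCK#2 (-2.80). Of 16 MLL and Trithorax subunits and demethylases 1 was called higher in MC38-WT, 2 higher and 1 lower in MC38-COSMC KO, 1 higher in MC38-CMAS KO, 2 lower in MC38-MOCK#2, 2 higher in MC38-FUT4, and 4 higher and 1 lower in MC38-FUT9, with list medians from -0.090 to 0.16.

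Retinoic acid is a classical inducer of Hox genes. Of 15 genes of its pathway 11 or 12 were tested, with 2 higher and 1 lower in MC38-WT, 1 higher in MC38-COSMC KO, 0 in MC38-CMAS KO (1 at an unadjusted p under 0.05 in limma), 4 higher and 2 lower in MC38-MOCK#2, 4 lower in MC38-FUT4, and 2 higher and 3 lower in MC38-FUT9. The receptor gene Rarb read 117, 175 and 295 in MC38-MOCK#2 against 10, 8 and 10 in MC38-MOCK#1 (4.15), and the retinol transporter gene Stra6 read 181, 160 and 220 against 0, 4 and 9 (5.66). In the same comparison Aldh1a1 fell (1, 2 and 1 against 9, 13 and 7, -2.18) and so did Crabp2 (0, 0 and 0 against 3, 3 and 3, -2.0), both at low counts. List medians ran from -0.47 (MC38-FUT4) to 0.45 (MC38-MOCK#2). Whether any of these lists bears on the Hox differences was not tested.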

How the data were processed

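RNA of 24 samples was sequenced by the authors as single reads (TruSeq Stranded mRNA, HiSeq), trimmed, aligned to GRCm38 (Ensembl) with HISAT2 2.0.4, processed with SAMtools 0.1.19 and counted with featureCounts of Subread 1.5.0-p3, reads overlapping several genes being left out. The deposited values, treated as a score because they are neither raw counts nor CPM, are the gene counts that the authors scaled for library size and TMM in edgeR 3.18.1 and rounded to whole numbers. For this report they were tested on log2(value + 1) with limma 3.58.1 (with a trend) in R 4.3.3, with Benjamini-Hochberg adjustment over all genes tested and a threshold of 0.05. A gene at 0 in more than 4 of the 6 samples of a pair was left out, and the F-test over 24 samples and the interaction over 12 needed at least 2 samples above 0. Because the values are not raw counts, no count model was run.

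Groups were taken from the labels. In simulated data for MC38-COSMC KO against MC38-MOCK#1, 138 of 200 genes changed 2-fold were called among 22581 tested, with 1 unchanged gene. For the F-test it was 128 of 200, changed in 1 line only, with 8 unchanged genes. The changed genes were drawn only from those above a minimum mean, so these rates do not cover members at low counts. Values per sample were named for members called in any pair or the F-test with a line mean of at least 10, and line means for the other members with such a mean. From each other list at most 4 called genes were eligible for naming, those with the largest differences in the comparison with most calls of that list. The members and lists were chosen with earlier results of these data known. Alternatives were another pseudocount, no filter, a mean filter, rescaling to the same total, median-of-ratios scaling, no trend, a fit of all 8 lines, a replicate block, and each sample left out. Promoters and microRNA sequences were from RefSeq (GRCm38.p6) and transcripts from GENCODE, with both strands searched for motifs. Depth was estimated from the steps between low values, a method off by at most 1.12% on simulated data. Some members and list genes enter the counts, but their own values are not reported here.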

Additional observations from a re-analysis of the deposited data

Results flagged for a closer look

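The effect of the COSMC knockout on 8 members differed between cells with CMAS intact and cells without it, by limma's interaction term over the 12 samples of MC38-MOCK#1, MC38-COSMC KO, MC38-CMAS KO and MC38-DKO, where 19% of all genes were called. A positive value means a more positive effect in the CMAS KO background. For the posterior HoxB genes the difference was 1.69 (SE 0.217, adjusted p = 9.37e-05) for Hoxb9, 1.88 (SE 0.323, adjusted p = 0.000985) for Hoxb8, 1.62 (SE 0.462, adjusted p = 0.0243) for Hoxb13 and 1.95 (SE 0.623, adjusted p = 0.0428) for Hoxb7. For the others it was 0.61 (SE 0.125, adjusted p = 0.00346) for Hoxd13, 0.71 (SE 0.211, adjusted p = 0.0297) for Hoxd10, 0.68 (SE 0.171, adjusted p = 0.0123) for Hoxa10 and -1.73 (SE 0.469, adjusted p = 0.0186) for Hoxb3.

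Behind these values Hoxb9 went from 161, 195 and 212 in MC38-MOCK#1 to 93, 91 and 73 in MC38-COSMC KO, and from 101, 91 and 86 in MC38-CMAS KO to 146, 117 and 148 in MC38-DKO. Hoxb3 went from 22, 27 and 38 to 72, 41 and 64, and from 40, 35 and 59 to 37, 17 and 27, with 52.9% of its exon bases shared with other genes. Leaving out 1 of the 12 samples ended the call of Hoxb7 for 10 of them (adjusted p up to 0.10), of Hoxd10 for 7 (up to 0.0758), of Hoxb13 for 6 (up to 0.0706) and of Hoxb3 for 4 (up to 0.0545), and of Hoxb9, Hoxb8, Hoxd13 and Hoxa10 for none. In the same test 7 of 9 mesenchymal markers were called negative, and their part in the Hox values was not tested. Each genotype is 1 line, so the interaction and a difference between lines cannot be told apart.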

How the results depend on the processing

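Over the 36 member calls of the pairs and the interaction, 0 reversed under the settings listed here. With pseudocount 4, 35 were called, with no filter 34, with a mean of at least 10 all 33 still tested, with rescaling to the same total or median-of-ratios scaling 36, in the fit of all 8 lines 34, without a trend 23 and with the replicate block 22. Counts of called members that moved by more than 1.5 times were, for MC38-WT (3), 1 without a trend, 5 in the fit of all 8 lines and 0 with the replicate block; for MC38-COSMC KO (6), 3 without a trend and 0 with the block; for MC38-CMAS KO (2), 5 with a mean of at least 10, 4 in the fit of all 8 lines and 0 with the block; and for MC38-FUT9 (5), 2 with a mean of at least 10, which leaves Hoxb13, Hoxb9 and Hoxb7 untested, and 3 without a trend. Except for that filter the cause was not tested. Over all genes the calls without a trend fell from 1192 to 717 in MC38-WT, 2563 to 1135 in MC38-COSMC KO, 1268 to 726 in MC38-CMAS KO, 2454 to 1389 in MC38-MOCK#2, 3509 to 2270 in MC38-FUT4 and 5166 to 3430 in MC38-FUT9, and were 40 against 20 in MC38-DKO. The fit of all 8 lines gave 2981 in MC38-WT, 2207 in MC38-CMAS KO, 159 in MC38-DKO and 3976 in MC38-MOCK#2, and the replicate block gave 0 in MC38-WT, 4 in MC38-COSMC KO, 1 in MC38-CMAS KO, 0 in MC38-DKO and 1756 in MC38-FUT4. Leaving out 1 sample gave 0 to 1 called in MC38-WT, 0 to 2 in MC38-COSMC KO, 0 to 2 in MC38-CMAS KO, 3 to 5 in MC38-MOCK#2 (7), 2 to 4 in MC38-FUT4 (5), 3 to 4 in MC38-FUT9, 0 throughout in MC38-DKO, 13 to 14 in the F-test and 4 to 9 for the interaction (8), and 24 of the 36 gene calls were lost at least once. Such fits have fewer samples.

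The replicate number goes with the passage in the 4 CRISPR-Cas9 lines, and in MC38-MOCK#2 and MC38-FUT9, but no source used here says that it marks a shared day or batch, and the correlation of same-numbered deviations was over 0.1 for every number in none of the 7 comparisons (-0.219 to 0.27). Each sample correlated best with its own number, a hint from the data only, in MC38-MOCK#2 against MC38-MOCK#1 and in MC38-FUT9 against MC38-MOCK#2. In MC38-MOCK#2 against MC38-MOCK#1 the replicate block ended the calls of Hoxb7 (limma adjusted p = 0.0710) and Hoxa3 (0.0919). Rescaling moved line means of members by at most 4.72%. Values of 0 to 4 normalized counts limit the ratios of Hoxb7, Hoxb8, Hoxb9 and Hoxb13 in MC38-FUT9.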
